A study of Mus musculus with 26 samples.

Results

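A set of 9 transcription factors that mark motor neuron columns and subtypes was followed at the RNA level while mouse embryonic stem (ES) cells differentiated in culture into motor neurons of the spinal type: Foxp1, Foxp2, Foxp4, Pou3f1, Etv1, Etv4, Phox2a, Tbx20 and Tbx2. They were taken by symbol from the deposited expression table, where these 9 of 34083 symbols filled 10 of 37450 rows, because Pou3f1 had 2 rows. The series holds 26 samples, of which the 4 RNA libraries were used, 1 library per day. Day 0 was an ES cell culture of the HBG3 line with no additions. Day 4 was a motor neuron progenitor culture of the HBG3 line that had received 1 uM retinoic acid (RA) and, to activate Hedgehog signalling, 0.25 uM of the agonist SAG, on day 2. Day 5 was a postmitotic motor neuron culture, by its label, of the iCre line that had received the same RA and SAG on day 2 and, on day 4, 5 uM DAPT, which inhibits gamma-secretase and thereby Notch signalling. Day 6 was the same kind of iCre culture with DAPT on days 4 and 5. A further label field names Ainv15 cells for all 4 libraries. The change of line, the addition of DAPT and the day therefore coincide between day 4 and day 5 and cannot be told apart. None of the libraries of days 4, 5 and 6 came from a culture without RA and SAG, and none of days 5 and 6 from one without DAPT.

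Spinal motor neurons are sorted into columns that share a target: the medial column projects to axial muscle, the lateral column to the limbs, the hypaxial column to body wall muscle, the preganglionic column to sympathetic ganglia, and the phrenic column to the diaphragm. Hox proteins set the position along the body, and Foxp1 acts with them as a cofactor, so that its level separates limb and preganglionic neurons from the axial ones. Within the limb columns, pools that supply single muscles switch on ETS factors such as Etv1 and Etv4, of which Etv4 is induced in response to the neurotrophic factor GDNF from the limb. Certain cranial motor neurons depend instead on factors such as Phox2a and Tbx20.

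The labelled stages were checked first on defining genes, with levels in FPKM (the fragment count of a gene divided by its length and by the size of the library). The summed FPKM of Pou5f1, Nanog and Zfp42, the ES cell genes, was 422 on day 0 and between 0.105 and 0.536 on the later days. The progenitor genes Olig2, Nkx6-1 and Pax6 summed to 2.02, 118, 38.2 and 9.05 FPKM on days 0, 4, 5 and 6. The motor neuron genes Isl1, Mnx1 and Chat summed to 0.657, 8.23, 132 and 152 FPKM on days 0, 4, 5 and 6. On day 5 all 3 progenitor genes were at 1 FPKM or more, and on day 6 Nkx6-1 alone, at 7.78 FPKM, a gene also used here as a pool marker, with Olig2 and Pax6 below 1 FPKM. In these cultures of mixed cells, a lower level can come from fewer cells of a type or from less RNA per cell, and these cannot be told apart.

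With 1 library per day there is no replicate spread, so no test was possible and no difference below has a replicate check. Steps were compared as differences of log2(FPKM + 1), later minus earlier day, in the genes that reached 1 FPKM in at least 1 of both libraries, which are the genes compared below. The words called higher and called lower mean that this difference reached 2-fold. Adding 1 to the FPKM understates the change of low genes.

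The number of the 9 factors at 1 FPKM or more was 5, 3, 5 and 6 on days 0, 4, 5 and 6. The set that passed was not the same on each day. On day 0 it held Etv4, Foxp1, Foxp4, Etv1 and Pou3f1, from high to low, and on day 6 it held Foxp1, Tbx20, Pou3f1, Tbx2, Phox2a and Foxp4. Foxp1 was the most abundant of the 9 on days 4, 5 and 6, and Etv4 on day 0. Foxp2 stayed below 1 FPKM on every day.

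**Figure D1:**
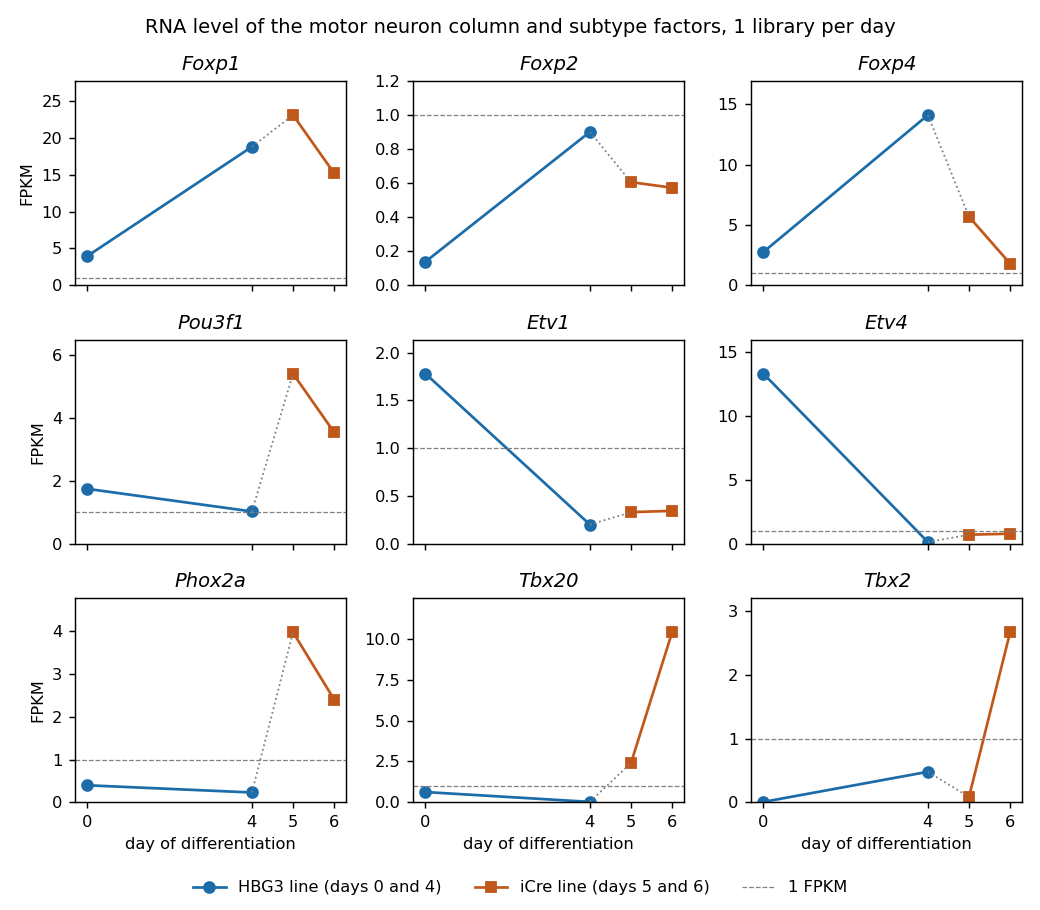
FPKM (vertical axis, a separate linear scale from 0 in each panel) of the 9 factors by day of differentiation, 1 point per library; circles are the HBG3 line, squares the iCre line, the dotted line joins the step at which the line changes, and the dashed line marks 1 FPKM. Etv4 and Etv1 were highest on day 0, Foxp4 and Foxp2 on day 4, Foxp1, Pou3f1 and Phox2a on day 5, and Tbx20 and Tbx2 on day 6.

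Between ES cells and progenitors, 2 of the 9 factors were called higher, Foxp1 and Foxp4, and 2 were called lower, Etv4 and Etv1. Pou3f1 was within 2-fold, and Foxp2, Phox2a, Tbx20 and Tbx2 lay below 1 FPKM in both libraries. Over all 11482 genes compared at this step, 19.3% were called higher and 11.9% lower. After the libraries were rescaled to a median ratio of 1, that split was 1583 genes higher and 1674 lower, in place of 2219 and 1366. Etv1 and Etv4 were compared only through their day 0 level. Between progenitors and day 5, 3 factors were called higher, Phox2a, Tbx20 and Pou3f1, against a background of 11.5% of 11339 genes, and Foxp4 was called lower, against 14.7%. Phox2a and Tbx20 could enter this comparison only by reaching 1 FPKM on day 5. Foxp1 was within 2-fold, and Foxp2, Etv1, Etv4 and Tbx2 lay below 1 FPKM on both days. Between day 5 and day 6, Tbx20 and Tbx2 were called higher, against a background of 6.57% of 11164 genes, and Foxp4 was called lower again, against 6.19%. Foxp1, Pou3f1 and Phox2a were within 2-fold at that step, and Tbx2 could enter only through day 6. Foxp2, Etv1 and Etv4 were below 1 FPKM on both days. No factor was called in the same direction at all 3 steps.

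**Figure D2:**
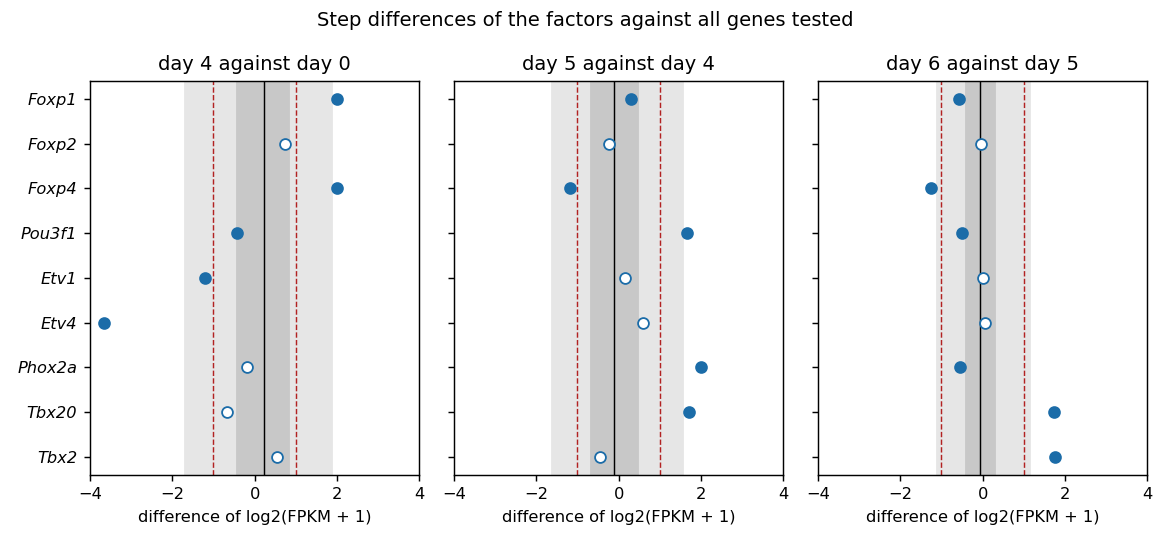
Difference of log2(FPKM + 1), later minus earlier day, for the 9 factors at each of the 3 steps; filled points are factors that reached 1 FPKM on at least 1 of the days, open points are below it on both. The dark and light bands hold the 25th to 75th and the 5th to 95th percentiles of all genes compared, the black line is their median (0.23, −0.11 and −0.07), and dashed lines mark 2-fold. Etv4 lies farthest from its band, at −3.65 from day 0 to day 4, and Tbx20 lies to the right of the band at both later steps.

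Foxp1 and Foxp4 were both higher on day 4 than on day 0 and differed from each other on days 5 and 6. Foxp1, the Hox cofactor of limb and preganglionic motor neurons, had 3.97, 18.8, 23.1 and 15.2 FPKM on days 0, 4, 5 and 6. The order of days was 0, 6, 4 and 5 from low to high, with the 3 later days within 2-fold of each other. It was 4.73-fold higher in FPKM on day 4 than on day 0, a log2(FPKM + 1) difference of 1.99, and 95.7% of genes compared had a smaller difference. On day 5 the gene stood above 90.9% of all genes detected in that library. Foxp1 was 0.29 higher on day 5 than on day 4 and 0.57 lower on day 6 than on day 5 on the log2(FPKM + 1) scale (differences of 0.29 and −0.57), neither past 2-fold.

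Foxp4, a forkhead factor that with Foxp2 has been tied to the detachment of newborn neurons from the neuroepithelium in the spinal cord, had 2.75, 14.1, 5.68 and 1.79 FPKM on days 0, 4, 5 and 6. Its lowest level was that of day 6 and its highest that of day 4. The difference of log2(FPKM + 1) was 2.01 for day 4 against day 0, −1.18 for day 5 against day 4 and −1.26 for day 6 against day 5. At the last step 3.68% of genes compared had a smaller difference. The progenitor genes Olig2 and Pax6 were likewise highest on day 4, and the part of remaining progenitors in the level of Foxp4 was not tested. Foxp2, known for its part in vocal learning and also present in spinal neurons, had 0.138, 0.901, 0.606 and 0.573 FPKM on days 0, 4, 5 and 6 and was never compared.

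Within the Foxp family, Foxp1 held a larger share in the neuron libraries than in progenitors. The level of Foxp1 over that of Foxp4 was 1.44, 1.33, 4.07 and 8.52 on days 0, 4, 5 and 6. Of the summed FPKM of the 4 Foxp genes, Foxp1 made up 57.9%, 55.5%, 78.6% and 86.6% on these days, and Foxp4 40.1%, 41.8%, 19.3% and 10.2%. Foxp2 held between 2.01% and 3.26%, and Foxp3, a factor of regulatory T cells, was listed at 0 on each day. The family sum was 6.85, 33.8, 29.4 and 17.6 FPKM, so the shares on days 5 and 6 were taken from a smaller total than on day 4.

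The RefSeq promoter table (build GRCm38.p6) held 8 start sites for 5 of the 9 factors (Foxp1, Foxp4, Etv1, Phox2a and Tbx20). Foxp1 had 3 of them, which FPKM per gene cannot separate. The 300-base windows, from 250 bases before to 50 after each start, were searched on both strands for letters known from the factors mapped in this series: TAATTA for LIM-homeodomain factors, ATCGAT or ATTGAT for Onecut factors and CAGATG for the Ngn2 type of E-box. No matches overlapped in the windows of the factors. Among all 32851 windows of the table, 5.29% held the first, 8.40% the second and 17.2% the third. Of the 3 Foxp1 windows, the middle one held TAATTA, beginning 240 bases before its start, and none held the Onecut or E-box letters. The 250 bases before that start (minus strand, chr6:99266516-99266765) are shown with the match in capitals, since it is the one LIM-homeodomain match among the 8 windows.
Foxp1 middle start: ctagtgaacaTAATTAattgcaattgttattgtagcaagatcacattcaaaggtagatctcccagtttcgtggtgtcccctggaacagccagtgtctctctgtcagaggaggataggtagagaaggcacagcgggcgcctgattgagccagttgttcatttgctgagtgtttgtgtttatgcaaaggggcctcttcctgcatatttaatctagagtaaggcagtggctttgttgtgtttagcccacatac
The single Foxp4 window held none of the 3.

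Pou3f1 reached its highest level in the day 5 library. This POU factor, also called SCIP or Oct6, marks phrenic motor neurons and certain limb pools and is known from early embryonic cells and Schwann cells as well. Its main row had 1.75, 1.03, 5.42 and 3.55 FPKM on days 0, 4, 5 and 6. The second row of the symbol was listed at 0 on days 0, 4 and 5 and at 0.0482 FPKM on day 6, and reads that the authors' counting may have split between the rows could not be told apart. Day 5 was 5.25-fold above day 4 in FPKM, a log2(FPKM + 1) difference of 1.66, and 95.6% of genes compared had a smaller one. Day 6 lay 0.50 below day 5 on the same scale (a difference of −0.50), within 2-fold.

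Pou3f1 was a minor member of its family once neural cells were present. The summed FPKM of the 4 Pou3f genes was 1.98 on day 0 and 34.4, 40.5 and 40.7 on days 4, 5 and 6. Pou3f1 made up 88.1% of it on day 0, 3.00% on day 4, 13.4% on day 5 and 8.72% on day 6. Pou3f2, Pou3f3 and Pou3f4, which act in neural precursors and neurons, were each called higher on day 4, with 16.2, 13.2 and 3.97 FPKM on day 4, against 0.0568, 0.159 and 0.0198 on day 0. None of these paralogs was called at the later steps, where Pou3f1 was called higher on day 5. On day 6 Pou3f3 held the largest share, 52.7%.

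**Figure D3:**
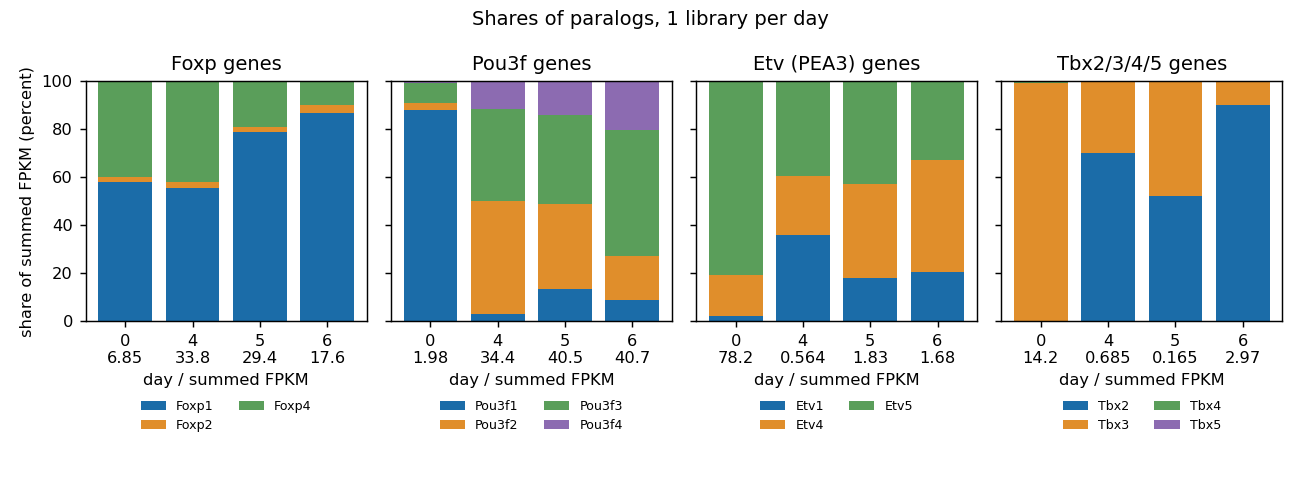
Share of each paralog in the summed FPKM of its family (vertical axis, percent), by day, with the summed FPKM of the family written under each day; 1 library per day. Foxp1 takes up a larger share on days 5 and 6 than on days 0 and 4, and Pou3f1 leads on day 0 alone. The Etv sum drops to 0.564 FPKM on day 4, against 78.2 on day 0. Tbx2 makes up most of its family's sum on days 4, 5 and 6, at 70.0%, 52.0% and 89.9%, with sums of 0.685, 0.165 and 2.97 FPKM.

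The limb pool factors Etv4 and Etv1 had their highest levels in ES cells. Etv4, or Pea3, had 13.3, 0.139, 0.713 and 0.788 FPKM on days 0, 4, 5 and 6. It was 95.6-fold lower in FPKM on day 4 than on day 0, a log2(FPKM + 1) difference of −3.65, and 0.793% of genes compared had a smaller difference. Etv1, or Er81, which also marks hypaxial motor neurons, had 1.78, 0.201, 0.331 and 0.345 FPKM on days 0, 4, 5 and 6, with a difference of −1.21 at the first step. Neither returned to 1 FPKM on days 5 and 6. The third member of this subfamily, Etv5, stood higher than either on day 0 and was lower too, at 0.223 FPKM on day 4, against 63.1 on day 0, and 0.785 and 0.551 on days 5 and 6. The summed FPKM of the 3 genes was 78.2, 0.564, 1.83 and 1.68 on days 0, 4, 5 and 6.

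Genes known to respond to FGF signalling, which drives these ETS factors in many tissues, were given by a list of 8 that holds Etv4 and Etv5. On day 4, 7 of the 8 were called lower and none higher, against 11.9% and 19.3% of all genes compared. Of the 7, 6 lay below 1 FPKM on day 4 and entered the comparison through day 0 alone, where they were high. Spry4, a feedback inhibitor of the pathway, had 0.0589 FPKM on day 4, against 17.5 on day 0, and Spry2 had 0.503, against 20.8. The exception was Spred1, at 8.60 FPKM on day 4, against 16.6 on day 0, with a difference of −0.87 that became −1.09 when the libraries were rescaled to a median ratio of 1. On day 5, 5 of the 8 were compared and 1 was called higher, against 11.5% of all genes compared. This was the MAP kinase phosphatase gene Dusp6, at 11.7 FPKM, against 2.31 on day 4. With a pseudocount of 0.1 FPKM in place of 1, 4 of these 5 were called higher, and so were 1783 of all 11339 genes compared, in place of 1308. None of the 5 compared on day 6 was called, and Dusp6 stood at 17.3 FPKM there.

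RNA of receptor genes through which GDNF acts on these pools was higher on days 5 and 6 than on day 4. Etv4 was below 1 FPKM on these days, and a link between these levels was not tested. Ret had 15.6 FPKM on day 5, against 1.87 on day 4, and 20.1 on day 6. Its coreceptor gene Gfra1 had 15.0 FPKM on day 5, against 2.28 on day 4, and 14.9 on day 6. Of the 14 genes on the list of pool markers and limb cues, which holds Etv4 and Pou3f1, 5 were called higher on day 5 and none lower among 7 compared, against 11.5% and 14.7% of all genes compared. Nrp1, a semaphorin receptor of motor axons, was the largest of these, at 16.3 FPKM, against 1.34 on day 4. On day 6, 2 of 9 compared were called higher, against 6.57% of all genes, the pool factor gene Runx1, at 4.16 FPKM, against 0.744 on day 5, and the receptor gene Met, at 5.46, against 0.678. Both entered only by reaching 1 FPKM on day 6. The patterning factor gene Nkx6-1 was the 1 called lower, at 7.78 FPKM on day 6, against 17.5 on day 5. The pool guidance and adhesion genes Sema3e, Cdh8 and Cdh20 were below 1 FPKM on days 4, 5 and 6.

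Both Etv1 start sites are in the promoter table. The second held 1 Onecut match, beginning 124 bases before the start, and 1 E-box match on the other strand, beginning 194 bases before it. The first window held none of the letters searched.

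Phox2a and Tbx20 were both first called on day 5 and differed on day 6. Phox2a, a paired-type homeodomain factor required for oculomotor and trochlear motor neurons, had 0.399, 0.231, 3.97 and 2.40 FPKM on days 0, 4, 5 and 6. The 2 neuron libraries lay above both earlier ones. Day 5 was 17.1-fold above day 4 in FPKM, a log2(FPKM + 1) difference of 2.01, and day 6 lay 0.55 below day 5 (a difference of −0.55), within 2-fold.

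Tbx20, a T-box factor of cranial motor neurons that is also central to heart development, had 0.632, 0.0316, 2.41 and 10.4 FPKM on days 0, 4, 5 and 6. Its level was lowest in progenitors and highest on day 6. The difference of log2(FPKM + 1) was 1.72 for day 5 against day 4 and 1.74 for day 6 against day 5. At the last step 98.5% of genes compared had a smaller difference. The level of Tbx20 over that of Phox2a was 0.608 on day 5 and 4.33 on day 6.

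Tbx2, a T-box repressor best known from heart, limb and eye, passed 1 FPKM on day 6 alone. It had 0.00740, 0.480, 0.0857 and 2.67 FPKM on days 0, 4, 5 and 6. Day 6 was 31.1-fold above day 5 in FPKM, a log2(FPKM + 1) difference of 1.76, with a smaller one in 98.5% of genes compared. Its close paralog Tbx3, a factor of ES cells among other tissues, was at 14.1 FPKM on day 0 and had 0.205, 0.0790 and 0.299 FPKM on days 4, 5 and 6. Tbx2 made up 0.0522%, 70.0%, 52.0% and 89.9% of the summed FPKM of Tbx2, Tbx3, Tbx4 and Tbx5 on days 0, 4, 5 and 6. That sum was 14.2, 0.685, 0.165 and 2.97 FPKM, so the shares on days 4 and 5 rest on levels below 1 FPKM. Tbx4 and Tbx5, the limb T-box genes, were listed at 0 on days 4, 5 and 6.

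Heart genes were looked at beside the T-box factors. Of the 5 listed (Nkx2-5, Myh6, Tnnt2, Actc1 and Myl7), none reached 1 FPKM on days 5 and 6, and they summed to 0.162 FPKM on day 5 and 0.251 on day 6. Of the 4 skin and limb mesenchyme genes, all were listed at 0 on days 5 and 6. The 4 V3 interneuron and floor plate genes summed to 2.66, 13.2 and 15.0 FPKM on days 4, 5 and 6, and all 4 reached 1 FPKM on day 6. Sim1 had 0.0166, 0.529 and 3.24 FPKM on these days, Shh 0.155, 1.05 and 3.23, and Foxa2 2.49, 2.80 and 3.33. Each of them rose at both steps, as Tbx20 did, with Foxa2 within 2-fold. Nkx2-2 had 0, 8.86 and 5.18 FPKM, higher on day 5 than on day 4 and lower on day 6 than on day 5. The 3 sensory and neural crest genes Sox10, Foxd3 and Pou4f1 summed to 0.830, 2.23 and 0.901 FPKM on days 4, 5 and 6, with Pou4f1 at 2.03 on day 5 and the crest gene Sox10 at 0.159 on day 6. The part of these cells in the levels of Phox2a, Tbx20 and Tbx2 was not tested. V0, V1 and dorsal interneuron genes summed to 4.52 FPKM on day 5 and 1.90 on day 6, with Lhx1 and Pou4f1 at 1 FPKM or more on day 5 and the V0 gene Evx1 listed at 0 on day 6. The 3 V2 genes stayed below 1 FPKM on every day. Of the 5 glial genes, 1 reached 1 FPKM on days 5 and 6, Mbp, at 11.5 and 9.90, and Gfap was at 0.0155 and 0.

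The list of cranial and visceral genes held 9 members, among them Phox2a, Tbx20 and Tbx2. On day 4, 2 were compared, of which Nkx6-2 was called higher and Tbx3 lower, against 19.3% and 11.9% of all genes compared. On day 5, 3 of 4 compared were called higher, Phox2a, Tbx20 and Rgs4, a regulator of G protein signalling, and Nkx6-2 was called lower. The shares of all genes compared were 11.5% and 14.7%. All 3 lay below 1 FPKM on day 4, so they entered only through day 5, and Phox2a and Tbx20 are factors described above. On day 6, 3 of 5 compared were called higher, Tbx2, Tbx20 and Rgs4, and none lower, against 6.57% and 6.19% of all genes compared. Tbx2 entered only through day 6, and Tbx2 and Tbx20 are factors described above. Gata2 and Gata3, which act in serotonergic and some hindbrain motor neurons, stayed below 1 FPKM on every day, as did Hoxb1, the Hox gene of facial motor neurons.

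The promoter windows of Phox2a and Tbx20 held none of the 3 kinds of letters searched. They are shown because these genes were both called higher on day 5, and neither has capitals. Each gives the 250 bases before the start, at chr7:101818063-101818312 on the plus strand for Phox2a and at chr9:24774304-24774553 on the minus strand for Tbx20.
Phox2a: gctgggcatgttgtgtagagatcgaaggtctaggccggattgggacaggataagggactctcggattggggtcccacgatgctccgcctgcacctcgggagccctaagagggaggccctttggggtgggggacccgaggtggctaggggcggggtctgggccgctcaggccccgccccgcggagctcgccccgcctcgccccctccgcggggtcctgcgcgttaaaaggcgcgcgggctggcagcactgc
Tbx20: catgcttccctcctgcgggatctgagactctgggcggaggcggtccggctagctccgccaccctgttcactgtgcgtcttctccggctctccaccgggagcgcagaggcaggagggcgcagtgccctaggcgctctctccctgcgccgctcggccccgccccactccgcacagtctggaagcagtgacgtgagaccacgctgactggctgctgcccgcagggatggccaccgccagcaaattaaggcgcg
The full windows were rich in G and C, at 71.3% for Phox2a and 68.3% for Tbx20.

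The remaining column genes were read beside the factors as 5 lists (limb, axial, hypaxial, thoracic and phrenic), of which all but the thoracic one hold a factor. Together with the pool and cranial lists they held 53 genes, without Foxp4, which stands in no list. On day 4, 18 of 28 compared were called higher and 5 lower, against 19.3% and 11.9% of all genes compared. Of the 18, 15 lay below 1 FPKM on day 0 and all 5 lay below it on day 4, so these entered the comparison through the other day alone. On day 5, 17 of 30 were called higher and 4 lower, against 11.5% and 14.7%, and on day 6, 8 of 35 higher and 3 lower, against 6.57% and 6.19%. Of those called higher, 6 of the 17 on day 5 and 4 of the 8 on day 6 lay below 1 FPKM on the earlier day. These likewise entered only through the day on which they were high. The called genes include factors described above: Foxp1, Etv1 and Etv4 on day 4, Pou3f1, Phox2a and Tbx20 on day 5. On day 6 they include Tbx20 and Tbx2. Genes of the stage check are also among them: Isl1, Mnx1 and Nkx6-1 on day 4, Isl1 and Mnx1 on day 5, and Nkx6-1 on day 6. With the FGF response list joined to these lists, the genes numbered 59, with 18 of 34 higher and 10 lower on day 4.

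In the limb list, Foxp1 stood beside Aldh1a2, the retinoic acid synthesizing enzyme of limb motor neurons, which had 33.4 FPKM on day 6, against 0.875 on day 5. Aldh1a2 was the 1 limb gene called on day 6 among 5 compared, against 6.57% of all genes called higher. It entered only by reaching 1 FPKM on day 6. Foxp1 itself did not differ by 2-fold between days 5 and 6. Lhx1, a marker of the lateral division that also stands among the interneuron genes above, was called higher on day 5. It had 2.21 FPKM on day 5, against 0.269 on day 4, and 1.11 on day 6. It entered the day 5 comparison only by reaching 1 FPKM on day 5. The limb-level Hox genes were low: Hoxc6 stayed at or below 0.111 FPKM on every day and Hoxc10 was listed at 0, while Hoxa6 had 1.67 and 3.06 FPKM on days 5 and 6.

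In the axial list, 3 of 5 compared were called higher on day 5 and 1 lower, against 11.5% and 14.7% of all genes compared. On day 6, none of 5 was called higher and 2 lower, against 6.57% and 6.19%. The LIM factor genes Lhx3 and Lhx4 were called higher on day 5 and lower on day 6. Fgfr1 was the 1 lower on day 5, at 6.57 FPKM, against 14.6 on day 4, a call lost after rescaling. A second row of the Fgfr1 symbol, not counted in the list, had 2.06 FPKM on day 5, against 2.28 on day 4, within 2-fold. Mecom was within 2-fold at both steps, with 3.14 FPKM on day 5 and 5.95 on day 6. Lhx3 had 24.1 FPKM on day 5, against 2.09 on day 4, and 3.90 on day 6, while Foxp1 had 23.1 and 15.2 FPKM on days 5 and 6. The call of Lhx4 on day 6, a difference of −1.07, was lost after rescaling. Mnx1 was called higher on day 5 and was within 2-fold on day 6. In the hypaxial list, which holds Etv1 beside Isl1, Mnx1 and Ntn1, 2 of 3 compared were called higher and Ntn1 lower on day 5. The shares of all genes compared were 11.5% and 14.7%. The 2 called higher, Isl1 and Mnx1, are also the general motor neuron genes of the stage check. None was called on day 6, against 6.57% higher and 6.19% lower of all genes compared. In the list of thoracic column genes, Hoxc9, the thoracic Hox gene, was listed at 0 on every day, and Nos1, a preganglionic marker, stayed below 1 FPKM. None of the 2 thoracic genes compared on days 5 and 6, Hoxb9 and Zeb2, was called there, although both were called lower on day 6 with a pseudocount of 0.1 FPKM.

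The phrenic list held Pou3f1 and 8 other genes. On day 4, 6 of 8 compared were called higher, against 19.3% of all genes, all 6 from below 1 FPKM on day 0 and 4 of them cervical Hox genes: Hoxa5, Hoxc4, Hoxa4 and Hoxc5, with 25.8, 14.6, 11.5 and 5.36 FPKM. On day 5, when Pou3f1 was called higher, 5 of 8 were called higher, against 11.5% of all genes, among them Alcam, an adhesion molecule gene of phrenic neurons, at 5.17 FPKM, against 0.453 on day 4. Hoxa5 stood at 80.0 FPKM, against 25.8 on day 4, and Hoxc5 at 14.1, against 5.36. Ptn, a heparin-binding growth factor gene, was the 1 called lower, at 1.17 FPKM on day 5, against 6.47 on day 4. On day 6, Alcam was called higher again, at 19.0 FPKM, and Ptn was called higher, at 31.3 FPKM, against 1.17 on day 5. The other 7 of the 9 compared on day 6, Pou3f1 among them, were within 2-fold.

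**Figure D4:**
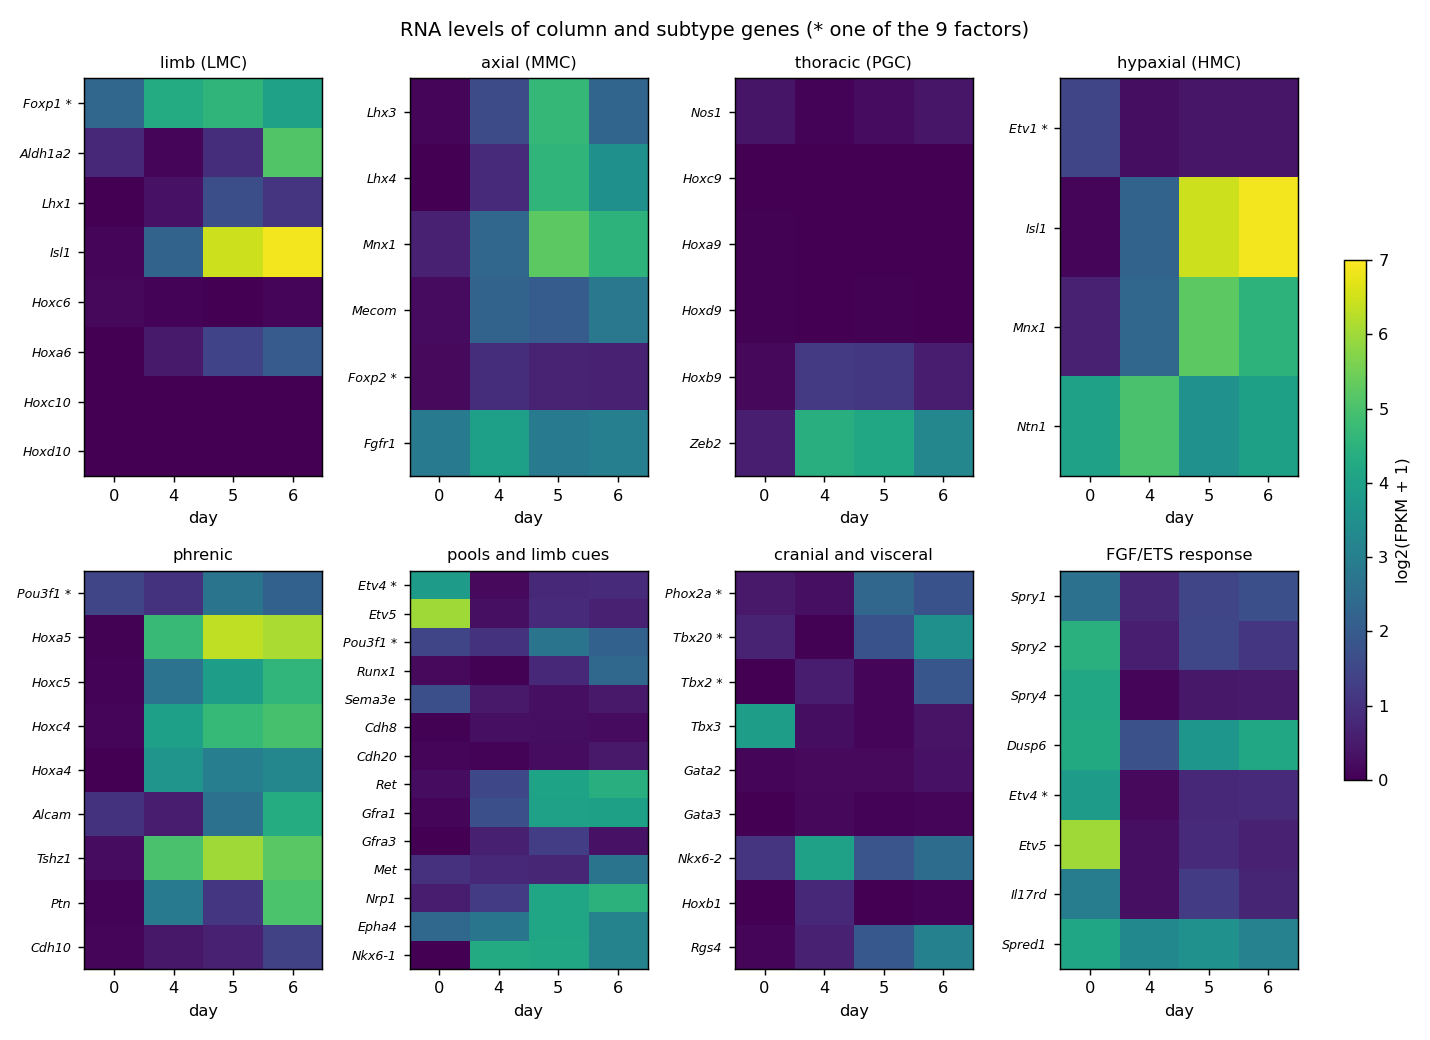
Level of each gene of the 8 column and subtype lists by day, as log2(FPKM + 1) on one color scale from 0 to 7, 1 library per day; an asterisk marks the 8 factors that stand in a list (all but Foxp4), and a gene may stand in several lists. Phrenic Hox genes and Tshz1 were high from day 4 on, the limb and thoracic genes Hoxc6, Hoxc10 and Hoxc9 stay at the dark end throughout, and the FGF and ETS response genes are brightest on day 0.

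The genes whose 4 levels were most like those of a factor were found by the Euclidean distance between profiles of log2(FPKM + 1), each centred on its own mean over the 4 libraries, among 11209 genes. With 4 libraries many genes lie close to any profile, so the names below are a description. They also depend on the 1 FPKM added, which flattens the profiles of low genes. With a pseudocount of 0.1 FPKM, 4 of the 16 named genes stayed among the 2 nearest. None of those named for Foxp1, Pou3f1, Etv1 and Tbx20 did. The nearest genes to Etv4 were Tfpi (distance 0.35) and the FGF feedback gene Spry2 (0.35). Those nearest to Foxp4 were Ski (0.14) and Gpx8 (0.19), of which Ski had 9.57, 44.3, 20.5 and 7.05 FPKM on days 0, 4, 5 and 6. Phox2a was nearest to Synm (0.12) and Galnt14 (0.21). Tbx20 was nearest to Rundc3b (0.30) and Dab1, a reelin pathway adaptor of migrating neurons (0.31), which had 3.01, 0.965, 7.47 and 26.0 FPKM. Tbx2 was nearest to Nptxr (0.25) and Nav3 (0.26), Pou3f1 to Snapc3 (0.13) and Zdhhc20 (0.22), Foxp1 to Habp4 (0.17) and Plscr3 (0.17), and Etv1 to Rpap2 (0.06) and Ncoa3 (0.07). Foxp2 spanned less than 2-fold on this scale and was not matched.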

How the data were processed

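RNA of 4 libraries was used, per the labels' protocols ribosome-depleted total RNA, 1 library per day. The authors deposited FPKM in 37450 rows, and 32798 of their gene IDs match the table of gene names. Neither the program behind the FPKM nor the reads per library, and thus the depth, are given in the sources used here, and the submitters' processing notes name STAR, Bowtie 0.12.7, HOMER 4.7.2, MACS and the build mm9 with no role for each. The most common ratio among genes below 0.03 FPKM was 0.500 for day 0 over day 4 (8.55% of 269 genes), 1.04 for day 4 over day 5 (21.7% of 254) and 1.32 for day 5 over day 6 (21.7% of 314).

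Differences of log2(FPKM + 1) were computed with Python 3.11.15, numpy 2.4.6 and pandas 2.3.3, and the code was tested on simulated data. No step allows a test. For Pou3f1 the row whose ID the gene name table pairs with the symbol was used, and likewise for other repeated symbols. Named genes were the 9 factors, their paralogs, up to 3 called genes per list, step and direction, other list and marker genes where a sentence needed them, and the 2 nearest profiles per factor. List genes that were not called were named after their values were seen. The factors and lists were chosen with earlier results of these data known. Alternatives were a pseudocount of 0.1 FPKM, libraries rescaled to a median ratio of 1, no filter, a filter of 3 FPKM and a 1.5-fold threshold.

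Binding and chromatin files were not used, because their positions are in mm9 and gene positions of that build were not used here, so the planned count of sites near the factors was not made. The planned protein comparison was not made either. Some listed genes are not reported here, and the list counts leave them out. Promoter sequences are from RefSeq, build GRCm38.p6; Foxp2, Pou3f1, Etv4 and Tbx2 were not matched there.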

Additional observations from a re-analysis of the deposited data

How the results depend on the processing

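No paired analysis was possible because each day had 1 RNA library. None of the 9 factors gained, lost or reversed a call with a pseudocount of 0.1 FPKM. Factors below 1 FPKM on both days stayed outside the comparison there, although on day 4 Foxp2 had a difference of 2.07, Tbx2 of 2.43 and Tbx20 of −2.48 with that pseudocount, and on day 5 Etv4 of 1.76 and Tbx2 of −1.64. None gained, lost or reversed a call after rescaling the libraries either, which removed shifts of 0.24, −0.15 and −0.08 on the log2 scale at the 3 steps. Without the filter on low values every count of calls stayed the same, because a 2-fold difference of log2(FPKM + 1) needs 1 FPKM. With a filter of 3 FPKM, 1 factor in place of 2 was called lower on day 4 against day 0, without Etv1, 2 in place of 3 were called higher on day 5 against day 4, without Tbx20, 1 in place of 2 was called higher on day 6 against day 5, without Tbx2, and on day 5 cranial and visceral genes were called higher in 1 case in place of 3, since fewer genes were compared. Rescaling changed the background split of calls, from 2219 higher and 1366 lower to 1583 and 1674 on day 4, from 1308 and 1668 to 1567 and 1378 on day 5, and from 734 and 691 to 830 and 608 on day 6. A 1.5-fold threshold called 3951 genes higher and 2293 lower on day 4, 2421 and 3205 on day 5, and 1591 and 1786 on day 6, and 13 and 9 of the 59 column and subtype genes on day 6 in place of 8 and 3. With a pseudocount of 0.1 FPKM, 1127 genes were higher and 1077 lower on day 6, 7 column and subtype genes were lower in place of 3, and in the pool list 3 in place of 1. Without the FGF response list, a choice made after seeing the data, 5 column and subtype genes in place of 10 were called lower on day 4. Of the 16 nearest genes named, 4 stayed among the 2 nearest of their factor with that pseudocount. Without Pou3f1, whose symbol has several rows, the share of Pou3f3 on day 0 was 67.5% in place of 8.03%. Where no cause is given, the cause was not tested. The depth of the libraries is unknown, and levels well below 1 FPKM are uncertain.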
